A study of Vicia sativa with 8 samples.

Results

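The RNA-Seq library of the roots and that of the leaves of common vetch (Vicia sativa), a forage legume, were compared unigene by unigene. A unigene is a sequence of the de novo assembly, which served as the reference because the species has no genome behind these data. Both organs came from 2-week-old plants of the cultivar Lanjian 3, raised, per their labels, in a greenhouse at 22°C with 16 h of light and 8 h of dark, and the labels name no treatment or transgene. How many plants went into each of these libraries was not stated. The study made 1 library per organ, also for 6 floral organs. The floral libraries are used here only to place the levels of the seedling organs. The floral organs came from older plants, with flowers at late pre-anthesis. Organ and plant age therefore change together wherever a seedling organ is set against a floral one. The members are the unigenes with a protein description from the nr database and a read in roots or leaves, which were 44298 of the 71553 unigenes in the tables. Of these, 32971 had at least 30 reads in the 2 libraries together and were compared, within 40241 unigenes that reached that minimum with or without a description. With 1 library a side there was no replicate, so no p-value was calculated, and every interval below is an exact 95% interval that covers counting error only.

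Leaves fix carbon in chloroplasts, export sugar to the rest of the plant and are sealed by a waxy cuticle. Roots take up water and ions, import sugar from the shoot, grow from a tip of dividing cells, and in legumes can house nitrogen-fixing bacteria in nodules. Bulk RNA of a whole organ mixes all of its cells, so fewer cells of a type and less RNA per cell cannot be told apart in any of the values. The sources used here do not say whether the roots bore nodules.

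Primers for qRT-PCR are known for 60 unigenes. Of these, 31 had enough reads to be compared here, with 6 called higher in roots and 7 higher in leaves by a ratio of at least 4. Primer pairs of 6 of these 13 and of the reference gene are shown because each one lets a difference described here be measured again in roots and leaves. The study already ran qRT-PCR in roots, leaves and the floral organs. It reported that most, but not all, of the 60 unigenes correlated significantly with the sequencing. Which of those shown were among them is not given here. They are written 5′ to 3′ in lower case, and no base is marked.
Unigene65647 forward: ccaaaagcaagcatgacatc
Unigene65647 reverse: agttgggccagcctatttct
Unigene54295 forward: ctttctaatgatacgtaagcaaggaa
Unigene54295 reverse: actcctcccctaaaatgattgat
Unigene65459 forward: gcaatcaacacattaagcaacaa
Unigene65459 reverse: gataatagagcgattggcgagt
Unigene68847 forward: ccaaaacactgatctcgatcct
Unigene68847 reverse: tcatccccgcagaatgtatc
Unigene69080 forward: gcctaagtgttgagcctagtcc
Unigene69080 reverse: ggtgaaaccagcaataacagc
Unigene67121 forward: ccaaaagtactgccttgatgttag
Unigene67121 reverse: ctctcattgctcaaagtaaacaaga
Unigene68614 forward: gctaaagcattgaacaacaaaaga
Unigene68614 reverse: gcaaagtttgtcccttcacc

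Reads were turned into RPKM, a level that takes account of unigene length and of the reads in the library. A unigene was called higher in an organ when its RPKM there was at least 4 times that in the other organ. Unigene65647, described as photosystem I subunit B, had 564 reads in leaves and 8 in roots, 76.9-fold higher in leaves (38.8 to 179). Unigene54295, described as cytochrome b6 of the electron transport chain between the photosystems, had 591 reads in leaves and 29 in roots (22.2-fold, 15.3 to 33.5). The aquaporin NIP1-3 of Unigene65459 was thinly read, with 46 reads in leaves and 7 in roots (7.17-fold, 3.22 to 18.8). Roots were higher for Unigene68847, a xyloglucan endotransglucosylase that remodels cell wall polymers, at 631 reads against 6 (96.4-fold, 44.0 to 264). They were also higher for Unigene69080, allene oxide cyclase 4 of jasmonate synthesis, at 381 reads against 65 (5.37-fold, 4.12 to 7.10), which fell to 3.84 and was no call under TMM factors, a scaling that centres the typical unigene. Unigene67121, flavonoid 3',5'-hydroxylase, rested on 28 reads in roots and 4 in leaves (6.42-fold, 2.24 to 25.2). The study's reference Unigene68614 had 343 reads in roots and 285 in leaves, and by library totals its ratio of 1.10 (0.940 to 1.30) did not leave 1. TMM factors, which moved every log2 ratio by -0.48, put this ratio and its interval below 1. The study picked this unigene because its level varied little in these same profiles, so a ratio near 1 is no separate check.

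Among described unigenes, 5516 were called higher in roots, which is 16.7% of those compared, and 4405 were called higher in leaves, which is 13.4%. Over all 40241 unigenes the counts were 6701 (16.7%) and 5493 (13.7%), and these shares are the background against which each gene group is read. No read at all was found in leaves for 697 of the unigenes called higher in roots, and none in roots for 640 of those called higher in leaves. Unigenes called higher in roots took 27.4% of the reads of the root library and 2.74% of those of the leaf library. Those called higher in leaves took 41.9% of the leaf reads and 2.54% of the root reads. By library totals, fewer unigenes thus held a larger part of the library in leaves, but under TMM factors leaf calls were the more numerous. The 100 most abundant unigenes held 7.82% of leaf reads and 4.12% of root reads.

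**Figure D1:**
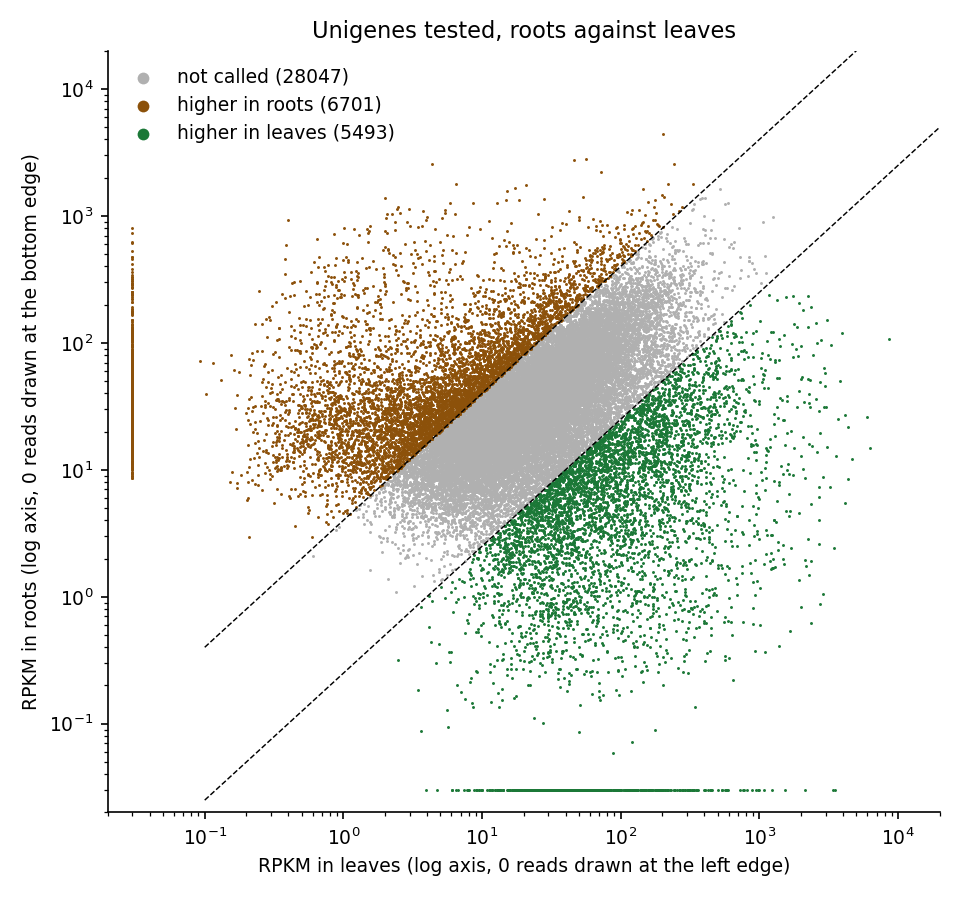
Each point is 1 of the 40241 unigenes compared, with RPKM in leaves on the x axis and RPKM in roots on the y axis, both log axes, and unigenes with 0 reads drawn at the edge. The dashed lines mark a ratio of 4, and 6701 unigenes lie beyond it toward roots and 5493 toward leaves.

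The balance of the calls depended on how the libraries were scaled. The median log2 ratio of roots to leaves was 0.51, with the 10th and 90th percentiles at -2.86 and 2.82, and 64.3% of unigenes had a ratio above 1. TMM factors, which set the typical unigene to no change, moved every log2 ratio by -0.48 and the median to 0.03. The calls were then 4894 higher in roots (12.2%) and 6665 higher in leaves (16.6%), so the share of calls that favoured roots went from 55.0% to 42.3%. For this reason many gene groups are given with a relative median. It is the median log2 ratio of the group minus that of all unigenes compared and is the same under either scaling. Other groups are given with their calls under TMM factors, or with calls alone, and the latter depend on the scaling. Of 58 groups drawn from words in the descriptions, 34 had more calls higher in roots, 21 more higher in leaves and 3 as many of each, and under TMM factors 22 leaned to roots and 34 to leaves.

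The root library held 5838364 uniquely aligned reads and the leaf library 5351178, within a range of 5351178 to 6281382 over the 8 libraries. The median unigene was covered over 84.77% of its length in roots and 79.34% in leaves. Across the 28 pairs of libraries, which share libraries, roots and leaves ranked 8th by the number of calls, with 30.3% of unigenes called. Spearman's rho of RPKM over all unigenes was 0.64 for roots and leaves, against 0.87 for sepals and leaves and 0.69 for sepals and roots. The label of the leaf library was borne out by its markers, since all 18 light harvesting unigenes compared were higher in leaves and their summed RPKM was 36022 in leaves, 883 to 10088 in the floral libraries and 305 in roots. The groups used as root markers did not bear out the root label in the same way. Their medians relative to all unigenes were 0.19 for root patterning regulators, -0.64 for suberin and -0.70 for nitrate and ammonium transport. Other groups listed for root biology spread widely. They ran from 4.63 for haemoglobins (3 unigenes) and 4.22 for secretory peroxidases down to -0.81 for phenylpropanoid and lignin genes.

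**Figure D2:**
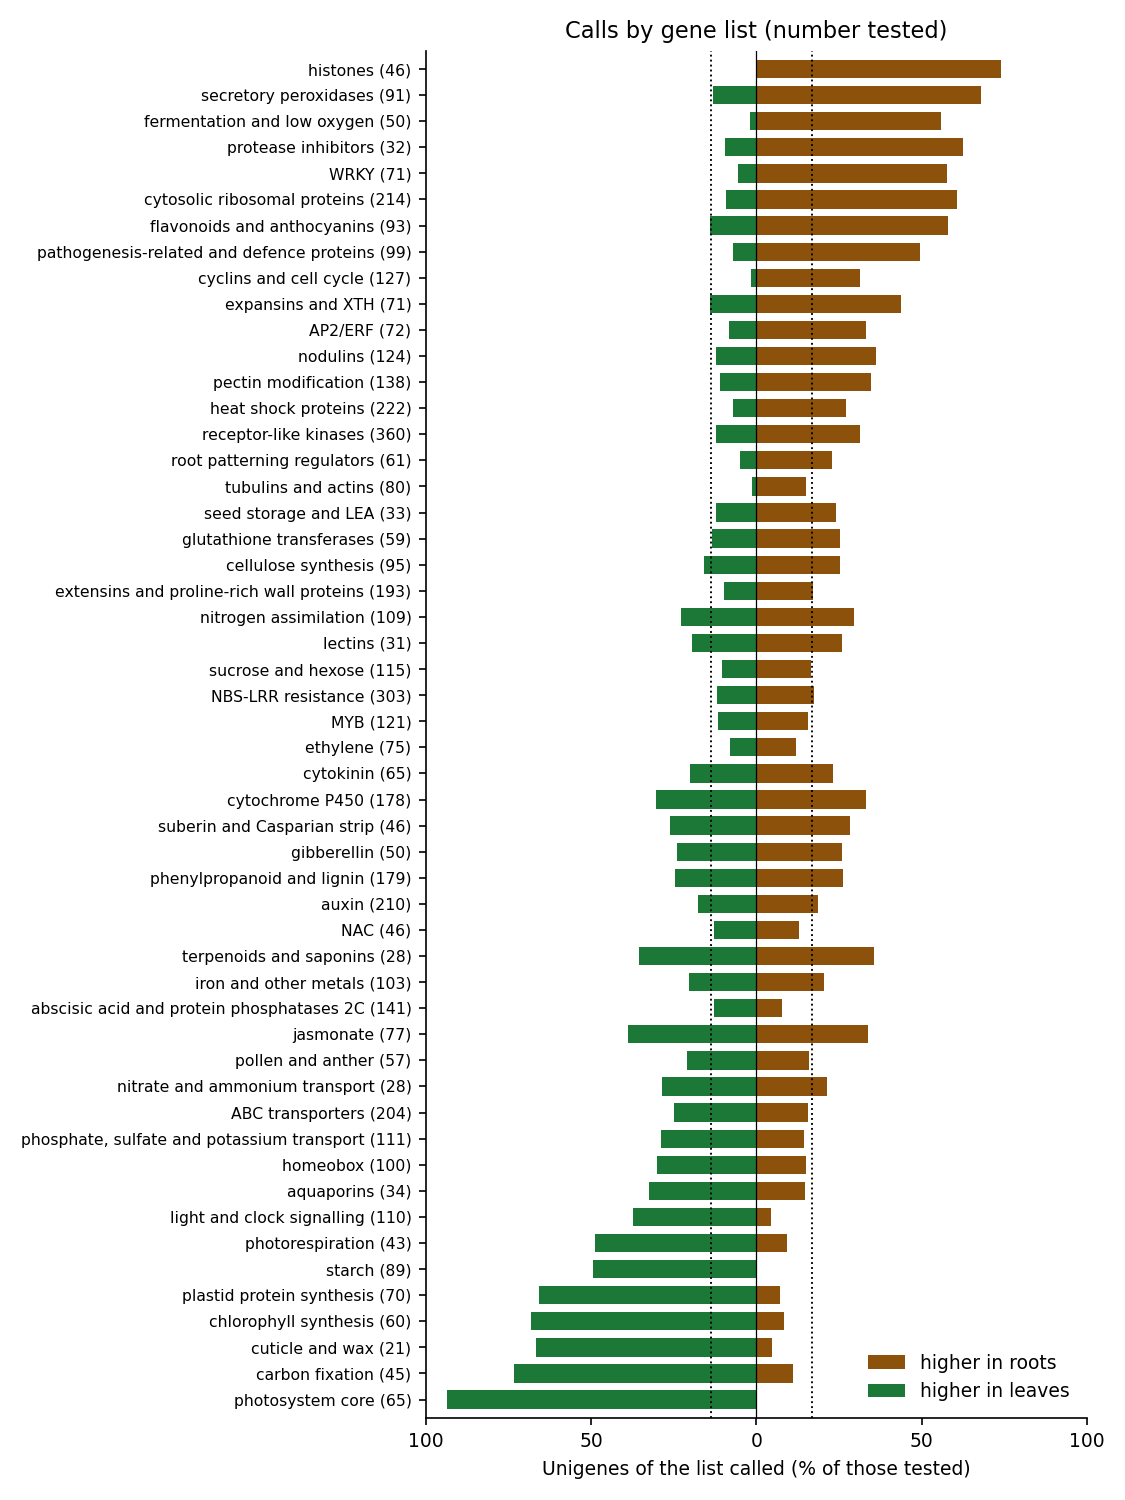
Bars give, for each gene group with at least 20 unigenes compared (number in parentheses), the percentage called higher in roots (right, brown) and higher in leaves (left, green), and the dotted lines mark the background of 16.7% and 13.7%. Photosystem core is wholly green, histones wholly brown, peroxidases, protease inhibitors and WRKY factors mostly brown, and jasmonate, terpenoid and cytochrome P450 groups long on both sides.

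Light harvesting, photosystem core and carbon fixation had the relative medians farthest from 0 of all groups. The groups for light harvesting, photosystem core, carbon fixation, photorespiration, chlorophyll synthesis and plastid protein synthesis held 301 unigenes compared, of which 220 were higher in leaves and 19 in roots, and they took 5.66% of leaf reads and 0.506% of root reads. All 18 light harvesting unigenes, whose proteins bind chlorophyll and pass light energy to the reaction centres, were higher in leaves, with a relative median of -7.87. Unigene29229 of this family was the most abundant described unigene called for leaves, with 8692 reads in leaves and 119 in roots (79.7-fold, 66.5 to 96.3). Unigene46106 of the same family had the largest ratio toward leaves among functionally described unigenes read in both organs, with 3525 reads against 1 (3846-fold, 690 to 151949). Reads of the family in roots were thus few beside those in leaves, though not absent from its most abundant unigene.

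Of the 65 photosystem core unigenes, 61 were higher in leaves and none in roots, with a relative median of -6.25. Unigene25273, a chloroplast photosystem I protein, had 3310 reads in leaves and 13 in roots (278-fold, 162 to 522). PETC in Unigene43447, the iron-sulfur protein of the cytochrome complex, had 3603 and 21 (187-fold, 122 to 303). Ferredoxin-NADP reductase, which makes the NADPH used in carbon fixation, was described as the leaf isozyme in Unigene32521 and had 4682 reads in leaves and 10 in roots (511-fold, 278 to 1066). In these 3 steps of the light reactions, leaves stood above roots by over 100 times with the whole counting interval.

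Enzymes of the Calvin cycle followed, with 33 of 45 unigenes higher in leaves. Sedoheptulose-1,7-bisphosphatase, which acts only in this cycle, had 4187 reads in leaves and 0 in roots in Unigene38666, at least 1523-fold higher when 0 is replaced by a floor of 3 reads. Rubisco activase, which keeps the carboxylating enzyme active, had 7190 reads in leaves and 24 in roots in Unigene59870 (327-fold, 219 to 510). Phosphoribulokinase in Unigene20737, which makes the acceptor of carbon dioxide, had 3189 and 46 (75.6-fold, 56.6 to 104). The 5 unigenes of the group that went the other way included a pair of short ones described as the small chain of Rubisco. Unigene22537 (163 bp) had 782 reads in roots and 3 in leaves, and Unigene21340 (159 bp) had 752 in roots and 0 in leaves, at least 230-fold higher in roots. Their highest floral level was in carpels, at 113 and 164 RPKM, so both were highest in roots among the 8 libraries. The best match of the latter was to a green alga.

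Photorespiration recycles the product of the oxygenase reaction of Rubisco through peroxisomes and mitochondria. In this group 21 of 43 unigenes were higher in leaves and 4 in roots, with a relative median of -1.60. Serine hydroxymethyltransferase, which turns glycine into serine in leaf mitochondria, was the second most abundant described unigene among those called for leaves, with 3861 reads in leaves and 11 in roots in Unigene20456 (383-fold, 214 to 768). The H protein of glycine decarboxylase split by unigene. Unigene27907 had 2028 reads in leaves and 11 in roots (201-fold, 112 to 404), whereas Unigene33872, described as H protein 3, had 235 in roots and 52 in leaves (4.14-fold, 3.06 to 5.71). The latter ratio fell to 2.96 under TMM factors and so was no longer a call.

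Chlorophyll synthesis had 41 of 60 unigenes higher in leaves and 5 in roots, and plastid protein synthesis 46 of 70 and 5, with relative medians of -3.96 and -4.05. Magnesium chelatase, which commits the pathway to chlorophyll, had 4121 reads in leaves and 29 in roots in Unigene50943 (155-fold, 108 to 232). The unigenes named for roots included protoporphyrinogen oxidase, a step shared with haem synthesis. In Unigene16155 it had 386 reads in roots and 55 in leaves (6.43-fold, 4.84 to 8.70). A methylase of uroporphyrinogen III in Unigene16734, whose product leads to sirohaem, had 624 and 68 (8.41-fold, 6.54 to 11.0). Both enzymes serve other tetrapyrroles than chlorophyll.

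**Figure D3:**
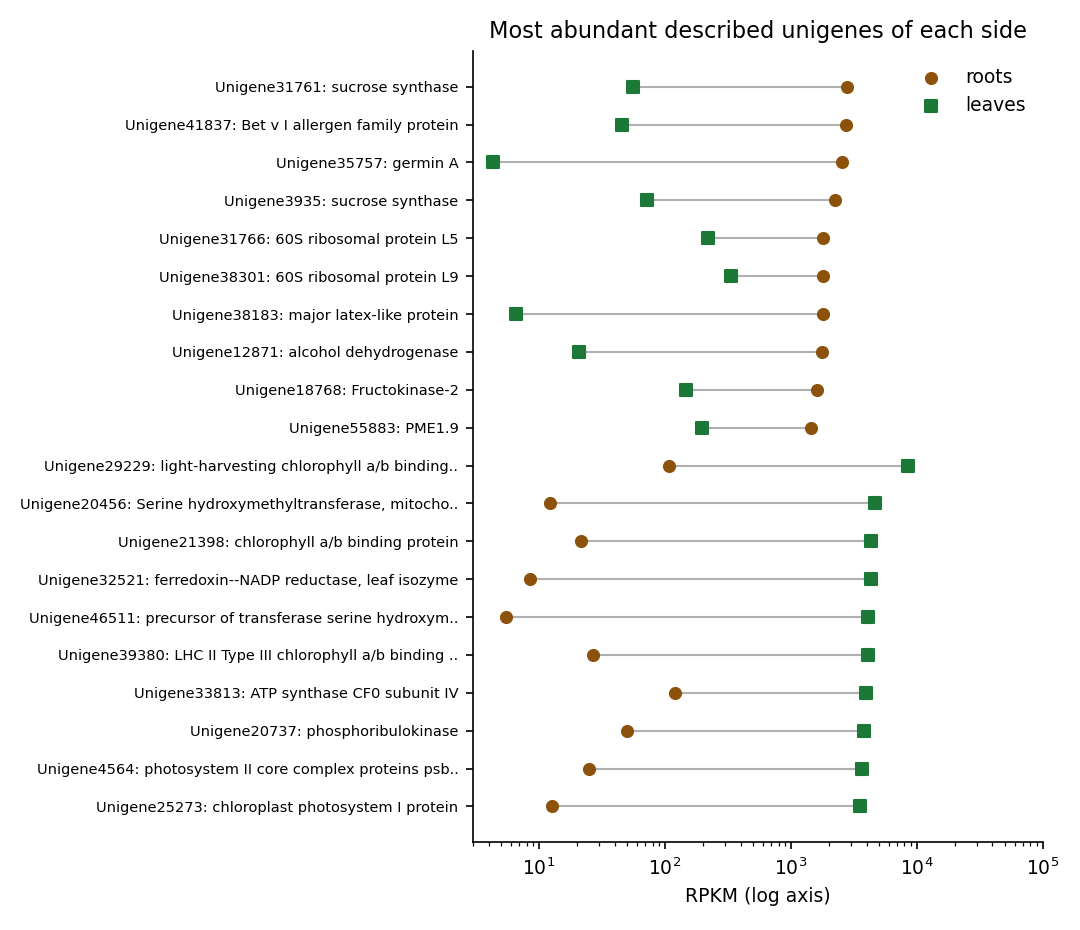
RPKM on a log axis in roots (brown circles) and leaves (green squares) for the 10 most abundant described unigenes among those called higher in roots (top) and in leaves (bottom). Leaf unigenes reach 3555 to 8549 RPKM and belong to photosynthesis and photorespiration, and root unigenes reach 1452 to 2816 RPKM and include sucrose synthases, alcohol dehydrogenase and ribosomal proteins.

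Starch followed photosynthesis, with 44 of 89 unigenes higher in leaves, none in roots, and a relative median of -2.47. ADP-glucose pyrophosphorylase supplies the glucose donor for starch in plastids, and its large subunit in Unigene66691 had 2246 reads in leaves and 3 in roots (817-fold, 279 to 3964). Beta-amylase, which breaks starch down to maltose, had 985 and 14 in Unigene49606 (76.8-fold, 45.5 to 141). Synthesis and breakdown of starch were therefore both on the leaf side.

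Single unigenes of sucrose metabolism differed strongly in both directions. Sucrose-phosphate synthase makes sucrose for export, and in Unigene12078 it had 5092 reads in leaves and 9 in roots (617-fold, 325 to 1351). Sucrose synthase, which cleaves sucrose in tissues that import it, gave the most abundant described unigene called for roots, Unigene31761, with 3272 reads in roots and 60 in leaves (50.0-fold, 38.7 to 65.7). Unigene3935, another unigene of that description, had 4690 and 138 (31.1-fold, 26.3 to 37.2). Fructokinase, which phosphorylates the fructose that sucrose synthase releases, had 1414 reads in roots and 117 in leaves in Unigene18768 (11.1-fold, 9.17 to 13.5). A beta-fructofuranosidase, or invertase, in Unigene63790 had 1067 and 32 (30.6-fold, 21.5 to 44.9). These are single unigenes, and the group as a whole, with 19 of 115 higher in roots and 12 in leaves, lay near the background.

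Transport proteins for sugar were on both sides. The sucrose transporter 1 of Unigene54584 had 555 reads in leaves and 81 in roots (7.48-fold, 5.91 to 9.56). MtN3 proteins move sugars across membranes, and Unigene35976 of this description had 401 reads in roots and 0 in leaves, at least 123-fold higher in roots. Unigene57319, also described as MtN3, had 564 in leaves and 26 in roots (23.7-fold, 16.0 to 36.6).

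Ethanol fermentation stood out on the root side. The group for fermentation and low oxygen was added after the values had been seen, because alcohol dehydrogenase was among the most abundant root unigenes. Of its 50 unigenes 28 were higher in roots and 1 in leaves, with a relative median of 2.08. Alcohol dehydrogenase, which regenerates NAD by reducing acetaldehyde to ethanol, had 5442 reads in roots and 59 in leaves in Unigene12871 (84.5-fold, 65.4 to 111). Pyruvate decarboxylase, the step before it, had 1434 and 9 in Unigene31111 (146-fold, 76.7 to 320) and 1340 and 6 in Unigene33604 (205-fold, 93.8 to 559). The summed RPKM of the group was 13264 in roots, 2346 in leaves and 1870 to 3107 in the floral libraries, so roots also stood above the 6 floral organs. This sum includes the alcohol dehydrogenase that prompted the group, so its height in roots is no separate support.

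Genes of light signalling and the clock leaned to leaves, with 41 of 110 higher there and 5 in roots and a relative median of -1.19. The study's methods place harvest of all tissues in the morning. LHY and CCA1, repressors of the plant clock that peak in the morning in Arabidopsis, were high in leaves: LHY in Unigene25504 had 1476 reads in leaves and 20 in roots (80.5-fold, 51.9 to 132), and CCA1 in Unigene27483 had 542 and 9 (65.7-fold, 34.4 to 144). The evening gene EARLY FLOWERING 4 in Unigene63602 went the other way, with 118 reads in roots and 2 in leaves (54.1-fold, 14.6 to 452). A phototropin, the blue light receptor of phototropism and stomatal opening, had 2583 in leaves and 26 in roots in Unigene67908 (108-fold, 73.8 to 166).

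Regulators of leaf form were few, but 5 of 14 were called and all 5 were higher in leaves. The 4 named ones are YABBY factors, which mark the lower side of leaves and floral organs, and each had 0 reads in roots against 45 to 129 in leaves. Unigene58151, described as YABBY 3, had 129 reads in leaves and so was at least 46.9-fold higher there. Their highest floral RPKM was 94.6 to 993, above the 42.8 to 56.1 RPKM of leaves.

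Cuticle and wax genes had 14 of 21 unigenes higher in leaves and 1 in roots, with a relative median of -3.52. The ketoacyl-CoA synthases KCS1 and KCS12 elongate the fatty acids that become wax. KCS1 in Unigene23910 had 134 reads in leaves and 1 in roots (146-fold, 25.8 to 5817), and KCS12 in Unigene25905 had 101 and 0. The suberin and Casparian strip group, which covers the matching barriers of roots, had 13 of 46 higher in roots and 12 in leaves, and under TMM factors the balance turned to 13 against 15. Dirigent proteins, which steer the coupling of lignin and lignan precursors, were among the calls on both sides. Unigene14093 had 693 reads in roots and 1 in leaves (635-fold, 114 to 25124), whereas Unigene9196 had 635 in leaves and 0 in roots, at least 231-fold higher in leaves. Single dirigent unigenes were thus nearly exclusive to an organ although the calls of the group were near balance.

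Secretory peroxidases, which use hydrogen peroxide to cross-link lignin and wall proteins, gave the highest relative median among groups of more than 3 unigenes, 4.22. Of 91 such unigenes 62 were higher in roots and 12 in leaves, and their summed RPKM was 19594 in roots and 3910 in leaves. Unigene10294 had 2118 reads in roots and 40 in leaves (48.5-fold, 35.5 to 68.1). Peroxidase 27 in Unigene45280 had 1640 and 3 (501-fold, 171 to 2432) and 0 RPKM in all 6 floral libraries. The 4 named peroxidases of the leaf side were far less abundant, at 182 to 270 RPKM, and all were at least as high in a floral organ. The root peroxidases were thus both more numerous and more abundant.

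**Figure D4:**
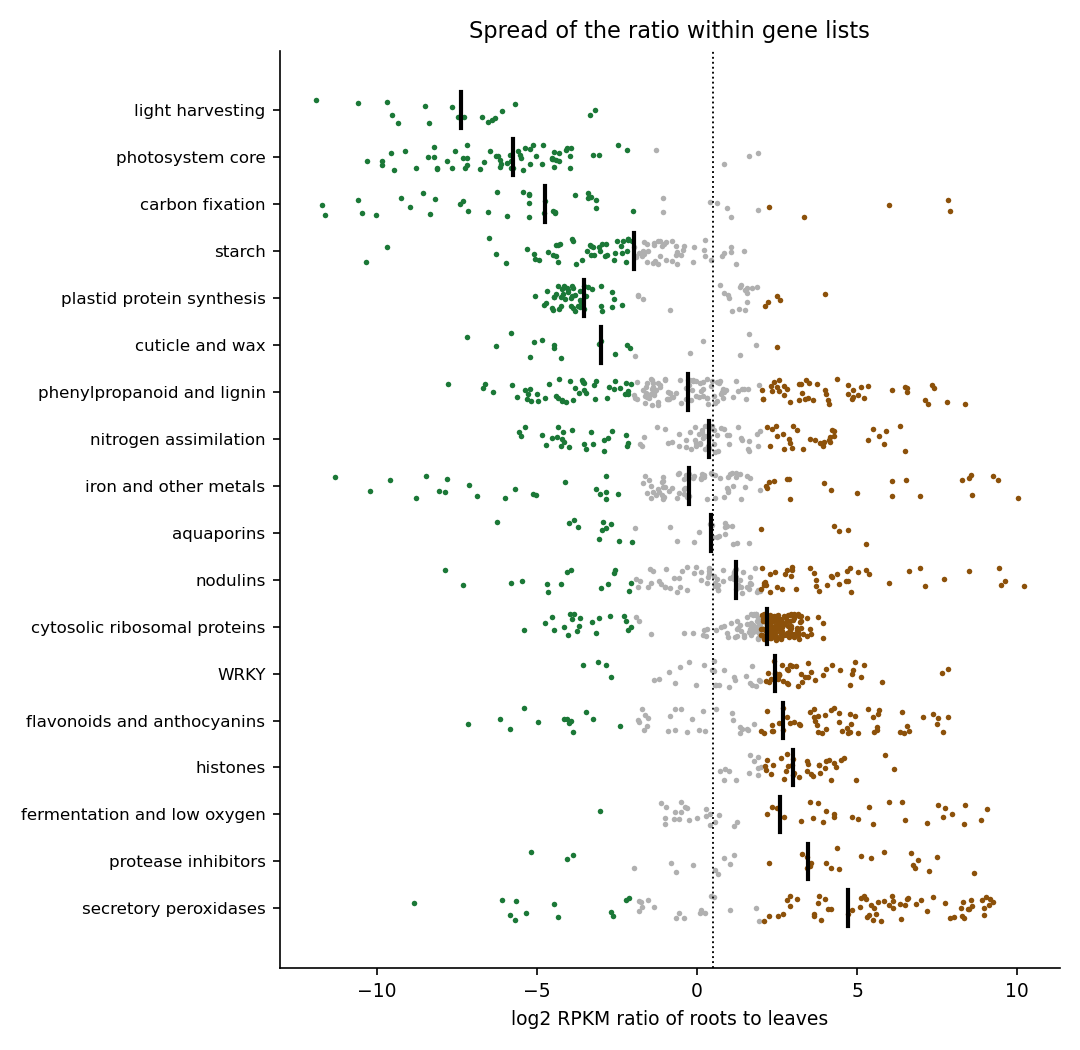
Each point is the log2 RPKM ratio of roots to leaves of 1 unigene in 18 gene groups, coloured brown when called higher in roots, green when higher in leaves and grey when not called. The thick line is the group median and the dotted line the median of all unigenes, 0.51. Light harvesting lies wholly below 0 and histones wholly above it, while lignin, nitrogen and iron groups spread to both ends.

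Flavonoid genes leaned to roots, with 54 of 93 unigenes higher there and 13 in leaves and a relative median of 2.17, and 48 and 20 under TMM factors. Chalcone synthase, the entry enzyme, had 2042 reads in roots and 19 in leaves in Unigene46179 (98.5-fold, 62.9 to 164). Chalcone isomerase, the next enzyme, had 2246 and 295 in Unigene67179 (6.98-fold, 6.18 to 7.91), and dihydroflavonol reductase had 1165 and 85 in Unigene39809 (12.6-fold, 10.1 to 15.8). The enzyme that opens the isoflavonoid branch of legumes, hydroxyisoflavanone synthase, had 632 reads in roots and 2 in leaves in Unigene217 (290-fold, 79.8 to 2397). The isoflavonoid group did not follow it, with 3 of 10 unigenes higher in roots, 4 in leaves and a relative median of -0.16. On the leaf side were decorating enzymes, such as an anthocyanin acyltransferase in Unigene10953 with 1268 reads in leaves and 78 in roots (17.7-fold, 14.1 to 22.6). Backbone enzymes were not confined to roots, since a dihydroflavonol reductase in Unigene67188 had 918 reads in leaves and 7 in roots (143-fold, 69.2 to 357). A flavanone 3-hydroxylase-like protein in Unigene46947 had 116 in leaves and 0 in roots.

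Lignin and phenylpropanoid genes were called often on both sides, with 47 of 179 higher in roots and 44 in leaves, and 41 against 56 under TMM factors. Their relative median of -0.81 lay toward leaves. Caffeoyl-CoA O-methyltransferase, which methylates lignin precursors, had 353 reads in roots and 2 in leaves in Unigene55117 (162-fold, 44.5 to 1341). Laccases, which polymerise lignin, were among the leaf unigenes, with 676 reads in leaves and 58 in roots in Unigene51172 (12.7-fold, 9.72 to 16.9). Cytochromes P450, a large family that hydroxylates such compounds, were also divided, with 59 of 178 higher in roots and 54 in leaves, and 51 against 59 under TMM factors. Terpenoid genes had 10 of 28 on each side. Squalene epoxidase, which leads to sterols and saponins, was in both sets: Unigene71268 had 1586 reads in roots and 361 in leaves (4.03-fold, 3.59 to 4.53, but 2.88 and no call under TMM factors), and Unigene69776 had 787 in leaves and 14 in roots (61.3-fold, 36.3 to 113).

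Genes first described in nodules, the nodulins, had 45 of 124 unigenes higher in roots and 15 in leaves, with a relative median of 0.71. Early nodulin 93 in Unigene11574 had 3759 reads in roots and 5 in leaves (689-fold, 295 to 2123), and ENOD2 in Unigene27918 had 862 and 1 (790-fold, 141 to 31242). Both were at most 8.64 RPKM in the floral libraries. The receptor-like kinase of symbiosis, which acts in the signalling pathway that admits rhizobia, had 1936 reads in roots and 54 in leaves in Unigene17822 (32.9-fold, 25.1 to 43.9). A haemoglobin in Unigene35499 had 537 and 6 (82.0-fold, 37.4 to 225), but the 3 haemoglobin descriptions named no leghemoglobin, the oxygen carrier of active nodules. An MtN19-like protein had 1301 reads in roots and 1 in leaves in Unigene60867 (1192-fold, 214 to 47134), while Unigene49419 of the same description had 144 in leaves and 1 in roots (157-fold, 27.8 to 6248). A nodulin name therefore did not by itself place a unigene in roots.

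The nitrogen unigenes shown here were of different enzymes on each side. Asparagine synthetase, which makes the main nitrogen carrier of many legumes, had 1770 reads in roots and 20 in leaves in Unigene51729 (81.1-fold, 52.4 to 133). Phosphoenolpyruvate carboxylase, which supplies carbon skeletons, had 1264 and 133 in Unigene34073 (8.71-fold, 7.28 to 10.5). The plastid glutamine synthetase 2, which recaptures ammonium from photorespiration, had 5811 reads in leaves and 140 in roots in Unigene5489 (45.3-fold, 38.3 to 53.9). Glutamate synthase had 4233 and 225 in Unigene58049 (20.5-fold, 17.9 to 23.6). Over the group 32 of 109 were higher in roots and 25 in leaves. A single unigene per enzyme does not place a step in an organ.

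Ion uptake did not lean to roots as a group, but single transporters were nearly confined to them. Nitrate and ammonium transport had 6 of 28 higher in roots and 8 in leaves. NRT1.1 in Unigene62772, a nitrate transporter and sensor in Arabidopsis, had 666 reads in leaves and 8 in roots (90.8-fold, 45.8 to 211), whereas the nitrate transporter of Unigene16364 had 741 in roots and 32 in leaves (21.2-fold, 14.9 to 31.3). A unigene described as a symbiotic ammonium transporter, Unigene62421, had 94 reads in roots and 0 in leaves and was also at 0 in all 6 floral libraries. Phosphate, sulfate and potassium transport had 16 of 111 higher in roots and 32 in leaves. High-affinity phosphate transport was on both sides, with 295 reads in roots and 2 in leaves in Unigene42699 (135-fold, 37.1 to 1122) and 1319 in leaves and 97 in roots in Unigene71295 (14.8-fold, 12.1 to 18.4). The potassium transporter HAK1 in Unigene65576 had 406 in roots and 0 in leaves, at least 124-fold higher in roots.

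Iron and metal genes held strong contrasts in opposite directions, with 21 of 103 unigenes on each side. The iron uptake transporter IRT1, in Unigene64965, had 1028 reads in roots and 3 in leaves (314-fold, 107 to 1525). Nicotianamine synthase, which makes a chelator that carries iron within the plant, had 1144 and 1 in Unigene14262 (1049-fold, 188 to 41451). Ferric reductases, which reduce iron, were among the leaf unigenes, with 2783 reads in leaves and 4 in roots in Unigene56374 (759-fold, 296 to 2788). FRO3 in Unigene59455 had 2290 and 1 (2498-fold, 448 to 98728). These named reductase unigenes and the named uptake transporter were thus read mainly in different organs. Whether another reductase unigene was read in roots is not shown here, and a role of the leaf ones in uptake was not tested.

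Aquaporins, the water channels, had 5 of 34 higher in roots and 11 in leaves, with 18 not called and a relative median of -0.08. A tonoplast channel of the TIP type had 2180 reads in roots and 103 in leaves in Unigene55614 (19.4-fold, 15.9 to 23.9). A plasma membrane channel of the PIP1 type had 723 and 31 in Unigene21451 (21.4-fold, 14.9 to 31.7). A channel of the PIP2 type was higher in leaves, with 585 reads in leaves and 119 in roots in Unigene43765 (5.36-fold, 4.40 to 6.59). A single unigene per type does not place a subfamily in an organ. ABC transporters, pumps for many compounds, leaned to leaves, with 51 of 204 there and 32 in roots. A pleiotropic drug resistance protein in Unigene3557 was the reverse, with 917 reads in roots and 46 in leaves (18.3-fold, 13.6 to 25.1) and at most 0.989 RPKM in floral organs.

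Wall-loosening genes leaned to roots, with 31 of 71 expansins and xyloglucan endotransglucosylases higher there and 10 in leaves. An expansin in Unigene61912 had 830 reads in roots and 4 in leaves (190-fold, 74.0 to 700). Pectin genes had 48 of 138 higher in roots and 15 in leaves, and a polygalacturonase inhibitor in Unigene48843 had 1103 and 8 (126-fold, 63.9 to 293). Extensins and proline-rich wall proteins were near the background, with 33 of 193 higher in roots and 19 in leaves, yet held 2 extremes. A hybrid proline-rich protein in Unigene47433 had 1115 reads in roots and 1 in leaves (1022-fold, 183 to 40401). The repetitive proline-rich wall protein of Unigene26316 had 3345 in leaves and 0 in roots, at least 1217-fold higher in leaves. Cellulose synthesis had 24 of 95 higher in roots and 15 in leaves, and 20 against 24 under TMM factors.

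Defence proteins leaned to roots, with 49 of 99 pathogenesis-related unigenes higher there and 7 in leaves and a relative median of 1.44. A Bet v I family protein, of the PR-10 type, in Unigene41837 was the second most abundant described unigene called for roots, with 3973 reads in roots and 61 in leaves (59.7-fold, 46.4 to 78.2). Germin A, a glycoprotein of the cell wall, had 3221 and 5 in Unigene35757 (590-fold, 253 to 1820), and a major latex-like protein had 2391 and 8 in Unigene38183 (274-fold, 139 to 635). Beta-1,3-glucanase, which attacks fungal walls, had 1601 and 9 in Unigene62728 (163-fold, 85.7 to 357). PR10 of pea in Unigene29521 was the most abundant of the 7 on the leaf side, with 2285 reads in leaves and 148 in roots, or 2236 and 133 RPKM. Members of the PR-10 type were thus abundant in either organ.

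Protease inhibitors, which block digestion by insects and the plant's own proteases, had 20 of 32 unigenes higher in roots and 3 in leaves, with a relative median of 2.97. A trypsin inhibitor in Unigene9828 had 1225 reads in roots and 11 in leaves (102-fold, 56.8 to 205). Its RPKM was 820 in roots but 6757 in carpels, so the highest organ was not a seedling organ. Receptor-like kinases had 113 of 360 higher in roots and 44 in leaves. NBS-LRR resistance genes, intracellular receptors of pathogens, had 53 of 303 and 36, close to the background, and 46 against 50 under TMM factors. Heat shock proteins had 60 of 222 higher in roots and 16 in leaves, and 42 against 29 under TMM factors.

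Ethylene genes held the largest ratio toward roots among functionally described unigenes read in both organs, although the group was below the background, with 9 of 75 higher in roots and 6 in leaves. ACC oxidase, which makes ethylene, had 2567 reads in roots and 1 in leaves in Unigene59978 (2353-fold, 422 to 92966) and 2048 and 4 in Unigene48905 (469-fold, 183 to 1724). ACC oxidase of pea in Unigene23253 was higher in leaves, with 176 reads and 9 in roots (21.3-fold, 11.0 to 47.4). ACC synthase, the step before it, had 470 reads in leaves and 0 in roots in Unigene10287, at least 171-fold higher in leaves. Different unigenes for the last steps of ethylene synthesis were thus read in roots and in leaves.

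Jasmonate genes were called often on both sides, 26 of 77 in roots and 30 in leaves. Lipoxygenase opens the pathway by oxidising linolenic acid. In roots Unigene54161 had 1767 reads and 3 in leaves (540-fold, 184 to 2620), and Unigene29064, described as loxN2 of pea, had 1253 and 3 (383-fold, 131 to 1859). In leaves LOX2, the chloroplast form of Arabidopsis, had 590 reads and 48 in roots in Unigene34387 (13.4-fold, 9.98 to 18.4). All 4 named root lipoxygenases were at most 6.37 RPKM in leaves.

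Cytokinin had 15 of 65 higher in roots and 13 in leaves. Isopentenyltransferase, which makes cytokinin, had 119 reads in roots and 2 in leaves in Unigene52483 (54.5-fold, 14.8 to 456), and cytokinin oxidase, which breaks it down, had 508 in leaves and 70 in roots in Unigene59693 (7.92-fold, 6.16 to 10.3). Gibberellin had 13 of 50 and 12. Gibberellin 2-oxidase, which inactivates the hormone, had 199 in roots and 2 in leaves in Unigene56135 (91.2-fold, 24.9 to 758), and gibberellin 20-oxidase, which makes its precursor, had 962 in leaves and 28 in roots in Unigene17152 (37.5-fold, 25.8 to 56.7). Abscisic acid and protein phosphatase 2C genes had 11 of 141 higher in roots and 18 in leaves, and 10 against 24 under TMM factors. The receptor PYL1 in Unigene64871 had 864 reads in roots and 6 in leaves (132-fold, 60.4 to 361), and NCED3 in Unigene40791, the limiting enzyme of its synthesis in Arabidopsis, had 887 in leaves and 2 in roots (484-fold, 134 to 4002). Auxin had 39 of 210 higher in roots and 37 in leaves, with efflux carriers, which move auxin between cells, among the leaf unigenes, at 608 reads against 17 in Unigene57485 (39.0-fold, 24.2 to 67.4). Under TMM factors auxin, cytokinin, gibberellin and ethylene groups turned to more calls in leaves than in roots, and the abscisic acid group had more in leaves under both scalings.

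Transcription factor families differed in their lean. WRKY factors, best known from defence, had 41 of 71 higher in roots and 4 in leaves, with a relative median of 1.93. The WRKY28 of Unigene50854 had 316 reads in roots and 13 in leaves (22.3-fold, 12.8 to 42.3). AP2/ERF factors had 24 of 72 and 6, and an ERF-like factor in Unigene54510 had 1016 and 7 (133-fold, 64.3 to 332). Homeobox factors leaned the other way, with 30 of 100 higher in leaves and 15 in roots, and a BEL1-type factor in Unigene63727 had 550 reads in leaves and 39 in roots (15.4-fold, 11.1 to 21.9). MYB factors had 19 of 121 higher in roots and 14 in leaves, and 15 against 21 under TMM factors. NAC factors had 6 of 46 on each side. Regulators of root patterning had 14 of 61 higher in roots and 3 in leaves, but 10 and 8 under TMM factors. Among them the LOB domain protein LBD41, in Unigene33980, had 294 reads in roots and 0 in leaves, at least 89.8-fold higher in roots.

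Markers of dividing cells were on the root side. None of 46 histone unigenes was higher in leaves and 34 were higher in roots, with a relative median of 2.47, and cyclin and cell cycle unigenes had 40 of 127 and 2. A B-type cyclin, which drives entry into mitosis, had 673 reads in roots and 6 in leaves in Unigene70883 (103-fold, 47.0 to 281). Histone H2B in Unigene3857 had 1112 and 128 (7.96-fold, 6.63 to 9.64). A unigene described as the mitotic kinase CDKB1-2, Unigene70201, was an exception, with 2361 reads in leaves and 53 in roots (48.6-fold, 37.0 to 65.1). Carpels exceeded roots in both groups, with a summed histone RPKM of 26335 against 6504 in roots and 1230 in leaves.

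Ribosomal proteins described without a plastid word had 130 of 214 unigenes higher in roots and 20 in leaves, with a relative median of 1.68. This count depended on the scaling and was 65 and 22 under TMM factors. Ribosomal protein L5 in Unigene31766 had 2089 reads in roots and 235 in leaves (8.15-fold, 7.12 to 9.36), and L9 in Unigene38301 had 2404 and 410 (5.37-fold, 4.84 to 5.98, but 3.84 and no call under TMM factors). The unigenes named for leaves were described as S2, S19 and L20, names that organelle ribosomes also carry, and S2 in Unigene47727 had 1623 reads in leaves and 142 in roots (12.5-fold, 10.5 to 14.9). Their descriptions did not give the compartment. Summed RPKM of the group was 63076 in roots, 21655 in leaves and 175282 in carpels.

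The floral libraries, which came from older plants, placed these differences among the organs. Organ and plant age were not separated in these values. Of the 6701 unigenes called higher in roots, 3772 (56.3%) had their highest RPKM of the 8 libraries in roots and 1735 (25.9%) in carpels. Of the 5493 called higher in leaves, 3627 (66.0%) were highest in leaves and 624 (11.4%) in sepals. In 1504 (22.4%) of the root set the level in roots was also at least 4 times that of every floral organ, against 560 (10.2%) of the leaf set. Each set was chosen by its ratio of roots to leaves, so a gap between roots and leaves follows from that choice. The choice also raises the share highest in the seedling organ, and that share over all unigenes is not given here. The median RPKM of the root set was 40.4 in roots, 3.44 in leaves and 14.9 in carpels. For the leaf set it was 78.4 in leaves, 4.56 in roots and 50.0 in sepals, so sepals stood close to leaves on these unigenes.

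**Figure D5:**
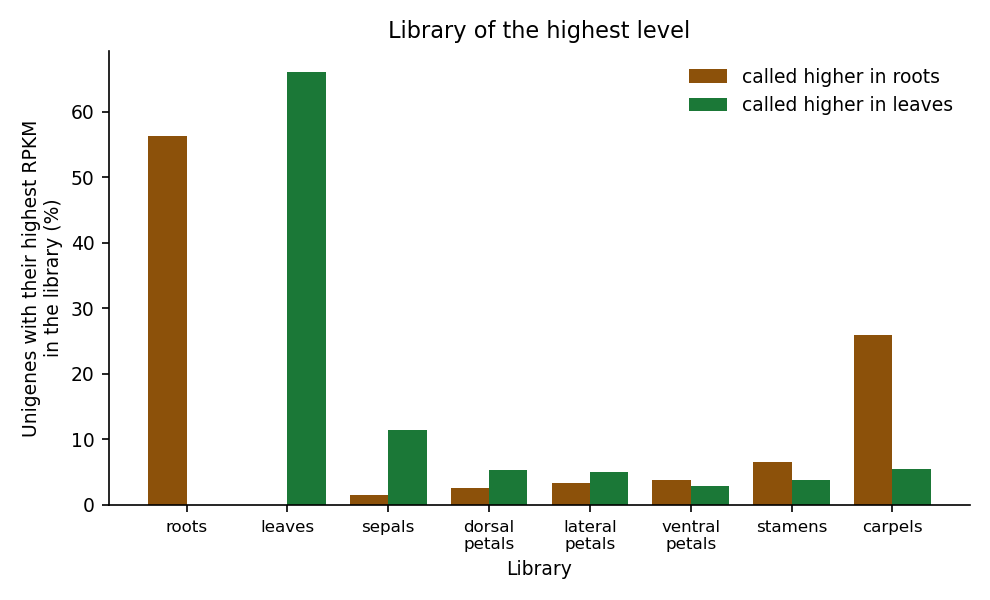
Bars give the percentage of unigenes called higher in roots (brown, 6701) or higher in leaves (green, 5493) whose highest RPKM among the 8 libraries lay in each library. After the seedling organ itself, carpels hold 25.9% of the root set and sepals 11.4% of the leaf set.

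Of 7 unigenes of floral homeotic MADS factors 1 was called, the APETALA1/FRUITFUL-like Unigene61245, with 605 reads in leaves and 13 in roots (50.8-fold, 29.5 to 95.9), a type of gene that is also active in leaves of some plants. Pollen and anther descriptions had 9 of 57 higher in roots and 12 in leaves, with a summed RPKM of 1923 in roots and 1544 in leaves against 2319 to 11342 in the floral libraries. Descriptions that name an organism other than a land plant or green alga covered 2195 unigenes compared, of which 310 (14.1%) were higher in roots and 267 (12.2%) in leaves. These unigenes took 7.43% of root reads and 8.06% of leaf reads and 5.57% to 8.06% across the 8 libraries. Of 2549 unigenes with such a description, read or not in these organs, 836 were described from Ectocarpus, 463 from Phytophthora, 441 from Thalassiosira and 179 from Phaeodactylum. Bacterial descriptions were 14, with 1464 reads in roots and 1956 in leaves. The study assembled the unigenes from poly(A) mRNA, and a description is only a match to a known protein. These counts therefore do not measure the bacteria in either organ. Only 1 description was fungal.

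The description of a unigene is a word match to a protein of another species, and fragments of 1 transcript can count several times in a group. In 161 of 8977 nr accessions with a called unigene, unigenes with the same accession were called in both directions. The median length of unigenes was 425 bp in the root set and 370 bp in the leaf set, against 428 bp for all compared.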

How the data were processed

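RNA of each organ was made into 1 Illumina library from fragmented mRNA primed with random hexamers. The sources used here state neither the aligner nor strand marking, so reads of antisense transcripts cannot be told apart. The counts were deposited by the authors as reads uniquely aligned to each unigene, so near-identical copies lose reads. The RPKM values were computed by the authors from counts, unigene length and the library total. The percent of each unigene covered by reads was also deposited by the authors.

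Both tables were joined on the unigene name, with 0 reads where a table lacked it. RPKM was recomputed from counts (largest relative difference from the deposited values 5.58e-09). Unigenes with at least 30 reads in both libraries together were compared, and a ratio of at least 4 was a call. A count of 0 was set to 3 reads for a fold, written as a bound. Intervals are exact Clopper-Pearson intervals at 95%. No test was run with 1 library per organ. The code was tested on simulated data. TMM factors came from edgeR 4.0.16 in R 4.3.3. Tables were handled with pandas 2.3.3 and numpy 2.4.6 under Python 3.11.15, intervals with scipy 1.17.1 and plots with matplotlib 3.10.9.

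The members and the gene groups were chosen with earlier results of these data known. Groups were matched by words in the nr descriptions, and words that matched other proteins were removed after the matches had been read. The unigenes named are, for each direction, the 10 described calls with the highest RPKM and the 5 with the largest ratio, and in each group up to 4 calls per direction by RPKM, besides the reference and called unigenes with primers. Descriptions without a function were skipped. Not all are printed, and the choice among them was made after their values were seen. Alternatives were other scalings, minimums and ratios, a pseudocount of 1, an interval rule, only unigenes over 200 bp, 1 unigene per accession and libraries thinned to equal totals.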

Additional observations from a re-analysis of the deposited data

How the results depend on the processing

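No paired analysis was possible because each organ has 1 library, and for the same reason no replicate could be left out. The median log2 ratio was 0.03 with TMM factors, 0.05 with median-of-ratios size factors, 0.48 with totals that leave out the 100 most abundant unigenes, 0.48 with a minimum of 100 reads, 0.33 with no minimum and 0.49 with RPKM + 1. Calls higher in roots were 3826 with a minimum of 100 reads, 10079 with no minimum, 14172 at a ratio of 2 and 3665 at a ratio of 8, and calls higher in leaves were 8310 at a ratio of 2. The number of gene groups with more calls in roots, 34, was 22 with TMM factors. Counts of some groups moved by over 1.5 times with TMM factors: in roots homeobox fell from 15 to 8, tubulins and actins from 12 to 5, light and clock signalling from 5 to 2, photorespiration from 4 to 1, plastid protein synthesis from 5 to 3 and cytosolic ribosomal proteins from 130 to 65. In leaves AP2/ERF rose from 6 to 11, cyclins from 2 to 6, flavonoids from 13 to 20, cellulose synthesis from 15 to 24, root patterning from 3 to 8, heat shock proteins from 16 to 29 and floral MADS from 1 to 2. Changed ratios and the interval rule alter calls only and give no median. All 5493 leaf calls and 4894 of the 6701 root calls stayed calls under TMM factors. Of 434 named unigenes 433 were called, and 337 to 433 of them under the alternatives, none in the opposite direction. Depth limits the lowest values: 3 reads correspond to 1.20 RPKM in roots and 1.31 in leaves at the median length, so a unigene with 0 reads may still be present below that level.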
